A study of Homo sapiens with 4 samples.

Results

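Binding sites that lay outside the mitochondrial chromosome and carried no gene name in the deposited site lists were examined in 4 fPAR-CLIP libraries from HEK293, an established human embryonic kidney cell line. A site was taken when it was not on the mitochondrial chromosome and its gene field was empty, which left 452 of 2184 nuclear sites and of 2341 sites in all. The 3 libraries of Flag-tagged GTPBP8 held 282 of these sites (95 of 417 nuclear sites in replicate 1, 103 of 695 in replicate 2 and 84 of 398 in replicate 3) and the library of V5-tagged AUH held 170 of 674. The cells of all 4 libraries were given as WT dox inducible. They carried the tagged protein under a doxycycline-inducible promoter, received 50 ng/ml doxycycline over 48 h and 100 µM 4-thiouridine over the last 16 h, and were irradiated at 312 nm over 5 min. Protein was pulled down from whole-cell lysates with Flag or V5 beads and the bound RNA was digested with RNase T1. The GTPBP8 libraries were labelled as biological replicates, whereas AUH had a single library without a replicate, so protein, tag and library cannot be told apart between them. The methods also placed AUH in an identical expression system, and no library of untagged cells was analysed here.

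In PAR-CLIP, 4-thiouridine that is crosslinked to a protein is copied as cytidine, so each site is a short stretch of RNA whose reads carry T-to-C conversions. GTPBP8 is a mitochondrial GTPase related to a bacterial ribosome assembly factor, and AUH is a mitochondrial enoyl-CoA hydratase that was first described as a protein binding AU-rich RNA. A site can lack a gene name when it is intergenic, when it lies antisense to a gene, or when the annotation in use lists no transcript there. The nuclear genome also holds many copies of tRNA and small nuclear RNA genes, pseudogenes of small nuclear RNAs and insertions of mitochondrial DNA, so a short read from such a family can resemble several loci.

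The sequences below are those of 11 of the 12 loci that carried most reads in all 3 GTPBP8 libraries; the other, LOC102724858, is given by its values further on. Each is the longest listed site of the locus, written 5′ to 3′ on the strand of the site in hg38, with the stretch that lay inside the sites of all 3 libraries in capitals.
TRV-CAC3-1, valine tRNA gene, chr19:4724629-4724707, minus strand: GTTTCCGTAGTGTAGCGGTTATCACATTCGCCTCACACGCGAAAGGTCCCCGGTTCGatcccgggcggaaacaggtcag
Outside RefSeq genes, chr13:27456891-27456914, plus strand: AAGCTTACCTCTCAAATCAATACa
TRS-CGA4-1, serine tRNA gene, chr12:56190394-56190435, plus strand: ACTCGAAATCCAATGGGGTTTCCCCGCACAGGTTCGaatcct
TRV-TAC3-1, valine tRNA gene, chr10:5853713-5853768, minus strand: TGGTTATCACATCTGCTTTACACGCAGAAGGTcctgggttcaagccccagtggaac
Outside RefSeq genes, chr17:38854848-38854874, plus strand: CTTCTCGGCCTTTTGGCCAAGATCAAG
Antisense to RABL3, chr3:120722394-120722426, plus strand: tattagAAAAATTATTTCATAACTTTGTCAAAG
Antisense to DYNC2H1, chr11:103408571-103408628, minus strand: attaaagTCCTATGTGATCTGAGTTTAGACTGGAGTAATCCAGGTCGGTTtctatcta
Outside RefSeq genes, chr6:140325373-140325394, plus strand: gATATTTAACTAAAACCCCATG
Antisense to SEMA3D, chr7:85091963-85091988, plus strand: CTTCTGGCCTTTTGGCTAAGATCAAG
Antisense to KHDRBS2, chr6:61574478-61574544, plus strand: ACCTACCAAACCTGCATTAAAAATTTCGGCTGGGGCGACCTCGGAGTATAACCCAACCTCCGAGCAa
Outside RefSeq genes, chr7:49471223-49471245, plus strand: TTTCTATCCATTTCAAATTTCCT

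The AUH library had a different set in front, and the 5 sites with most reads are shown for contrast. Capitals mark the bases inside the RefSeq tRNA gene, and the pair of sites outside tRNA genes is in lower case throughout.
Outside RefSeq genes, chrX:87071109-87071130, plus strand: tttgagactaggatgttgatat
TRV-AAC2-1, valine tRNA gene, chr5:181188458-181188489, minus strand: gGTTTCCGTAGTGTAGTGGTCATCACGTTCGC
HSPA5, on the strand of the gene, chr9:125240172-125240200, minus strand: aaaccgctgaggcttatttgggaaagaag
TRV-TAC2-1, valine tRNA gene, chr11:59551029-59551059, minus strand: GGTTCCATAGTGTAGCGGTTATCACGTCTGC
TRR-CCG2-1, arginine tRNA gene, chr17:68019929-68019979, minus strand: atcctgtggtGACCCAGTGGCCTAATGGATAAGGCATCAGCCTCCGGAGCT

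Sites without a gene were a minority of the nuclear sites but held most of the nuclear site reads of GTPBP8. They made up 22.8% (95% Wilson interval 19.0 to 27.0), 14.8% (12.4 to 17.7) and 21.1% (17.4 to 25.4) of the nuclear sites in replicates 1, 2 and 3, a mean of 19.6% ± 4.20 (SD, n = 3), and 25.2% (22.1 to 28.6) in AUH. They held 16774 of 26677, 18374 of 32665 and 19309 of 31107 nuclear site reads, or 62.9%, 56.2% and 62.1% (60.4% ± 3.62, SD, n = 3), against 3228 of 7795 reads or 41.4% (40.3 to 42.5) in AUH. The AUH share of reads lay below each GTPBP8 library, while its share of sites lay above each of them. Neither contrast could reach significance (exact two-sided permutation tests, p = 0.25 for reads and p = 0.5 for sites), because 3 libraries against 1 allow no p below 0.25. Without sites on tRNA genes the order of the site shares turned, to 18.2% in GTPBP8 and 14.8% in AUH. Intervals cover counting error only and treat each site or read as independent. PCR copies are not independent molecules, so the intervals for reads are too narrow even for that error. Mitochondrial RNA took most reads of the GTPBP8 lists, and the sites without a gene were therefore only 4.17%, 2.93% and 4.79% of all site reads (3.96% ± 0.948, SD, n = 3), against 33.3% in AUH.

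The reads were concentrated on few sites in GTPBP8 and spread more evenly in AUH. The 5 sites of each library with most reads held 65.4%, 62.4% and 64.3% of the reads without a gene in replicates 1 to 3 (64.1% ± 1.55, SD, n = 3) and 23.5% in AUH (exact permutation test, p = 0.25). Outside these 5 sites, reads without a gene were 21.7%, 21.2% and 22.1% of all nuclear site reads in GTPBP8 and 31.7% in AUH. These totals still held the 5 sites, which weigh more in GTPBP8. With the 5 sites left out of the totals too, the share was 35.5% ± 2.48 (SD, n = 3) in GTPBP8 and 35.1% in AUH. At the other end, 36, 38 and 33 of the GTPBP8 sites and 100 of the AUH sites without a gene had fewer than 10 reads, which was 37.9%, 36.9%, 39.3% and 58.8% of them. The shares under 10 reads among sites with a gene were higher in every library, at 62.1%, 64.0%, 58.6% and 88.9%.

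In GTPBP8, sites without a gene were deeper than sites with a gene in each library. The median was 13, 15 and 19 reads against 7, 7 and 8 in GTPBP8 replicates 1 to 3, a ratio of 2.13 ± 0.259 (SD, n = 3; exact sign-flip test, p = 0.25, the smallest that 3 libraries allow), and 7.5 against 5 reads in AUH. The AUH order rested on the read totals computed here: its ratio of 1.5 became 0.625 with the deposited totals and 0.886 at sites of at least 10 reads. The AUH share of nuclear site reads likewise fell to 27.8% with the deposited totals. The median length of sites without a gene was 26, 27 and 24 nt, against 27, 28 and 27 nt with a gene. The share of reads with a T-to-C conversion was 67.6%, 66.8% and 66.3% against 63.0%, 64.0% and 58.8%, a difference of 4.99 ± 2.36 percentage points (SD, n = 3; exact sign-flip test, p = 0.25). With the median of the sites in place of all reads the difference was 3.00 ± 4.75 points and the libraries no longer ran one way (exact sign-flip test, p = 0.5). In AUH the order was the opposite, with 69.0% of reads converted without a gene and 79.4% with one. Without the sites on tRNA genes, the AUH difference turned from −10.4 to 1.58 points, and the GTPBP8 mean difference was 16.1 points. The share of sites that overlapped a site of another GTPBP8 replicate was 44.2%, 37.9% and 46.4% without a gene and 18.8%, 12.8% and 21.3% with one, a difference of 25.2 ± 0.212 points (exact sign-flip test, p = 0.25, n = 3). At sites of at least 10 reads this difference was 27.1 ± 0.966 points (SD, n = 3). Depth moved with the overlap, and its part in it was not tested further. Counted over ordered pairs of replicates, 240 of 564 sites without a gene overlapped another replicate (42.6%), where the share over all nuclear GTPBP8 sites was 21.4%.

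**Figure D1:**
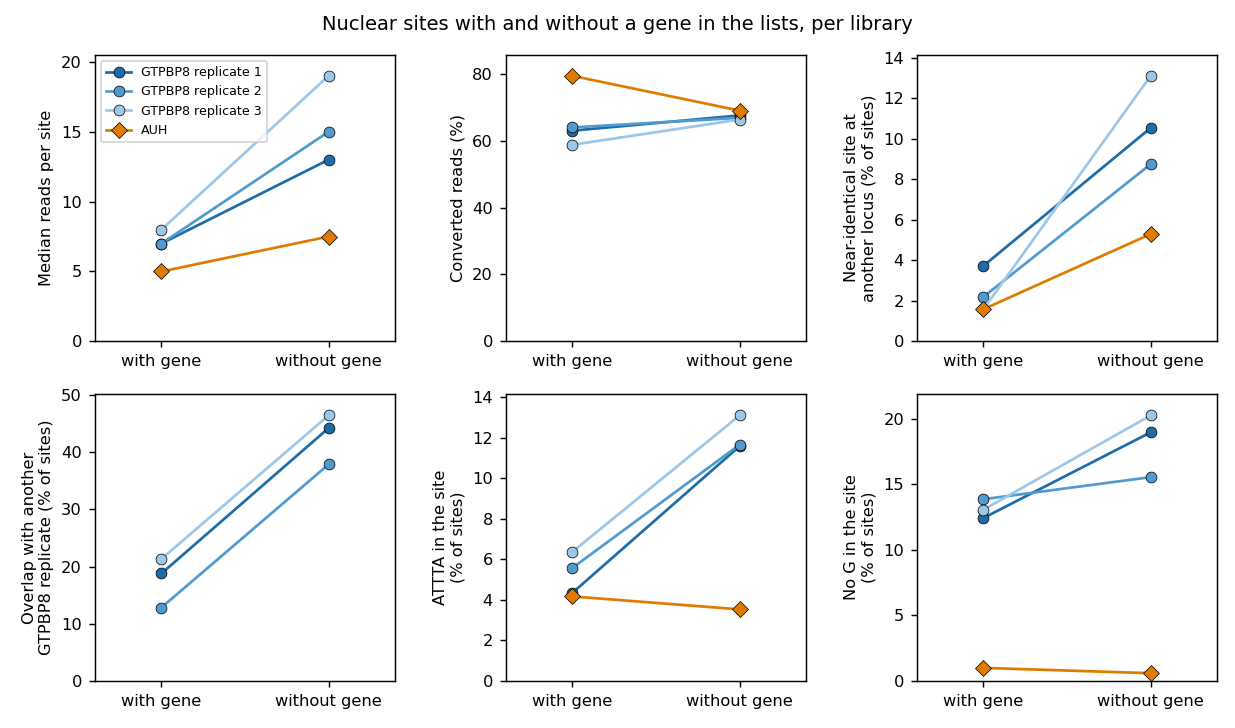
Values of nuclear sites with a gene (left of each panel) and without a gene (right) in the 3 GTPBP8 libraries (circles) and AUH (diamonds), for median reads per site, converted reads in percent, and the percent of sites with a near-identical site elsewhere, with an overlap in another GTPBP8 replicate, with ATTTA and with no G. All 3 GTPBP8 lines rise in every panel, and the AUH line falls for converted reads, ATTTA and sites with no G.

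Some measures of base composition ran the same way in GTPBP8 and AUH and others did not. Median GC content of sites without a gene was 39.5%, 40.0% and 40.0% in GTPBP8, below the 44.9%, 42.9% and 43.3% of sites with a gene, whereas in AUH it was 52.0% without and 47.6% with a gene. The AUH difference also turned without the sites on tRNA genes, from 4.38 to −1.60 points. Sites that contained no G numbered 18, 16 and 17 in GTPBP8 (18.9%, 15.5% and 20.2%) and 1 in AUH (0.588%), against 12.4%, 13.9%, 13.1% and 0.992% of sites with a gene, so replicate 2 was close to its sites with a gene. RNase T1 cuts after G, and the listed site ended in G in 46.3%, 53.4%, 50.0% and 34.7% of the sites without a gene in the same order, below the 57.5%, 56.8%, 57.3% and 55.6% of sites with a gene. At sites of at least 10 reads this difference all but vanished, from −7.27 to −0.11 points in GTPBP8 (exact sign-flip test, p = 1.0, n = 3) and from −20.8 to 0.71 in AUH. ATTTA, the pentamer of AU-rich elements, was searched on the strand of the site and was in 11, 12 and 11 GTPBP8 sites and 6 AUH sites. These were 11.6%, 11.7% and 13.1% of the GTPBP8 sites without a gene, against 4.35%, 5.57% and 6.37% of those with one, a difference of 6.68 ± 0.579 points (SD, n = 3; exact sign-flip test, p = 0.25). In AUH the shares were 3.53% and 4.17%. TTTTT, a run of U, was less frequent without than with a gene in the 4 libraries, at 6.32%, 5.83%, 4.76% and 9.41% against 7.76%, 7.26%, 7.01% and 13.1%.

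The RefSeq gene table of GRCh38.p14 showed what lay at sites that the lists had left unnamed. In AUH most of these sites fell on genes, above all tRNA genes with 87 of 170 sites, and 37 lay in a gene on the strand of the site. In GTPBP8 the tRNA genes accounted for only 7, 7 and 12 sites, yet they took 46.7%, 43.6% and 48.1% of the reads without a gene (46.1% ± 2.32, SD, n = 3), against 58.9% (57.2 to 60.6) in AUH (exact permutation test, p = 0.25). The most common class by number in GTPBP8 was sequence with no RefSeq gene, with 40, 50 and 37 sites (44.9% ± 3.30 of sites; 30.3% ± 0.695 of reads), against 20 sites in AUH (11.8% of sites, 13.8% of reads). Sites with a gene only on the opposite strand followed, with 30, 21 and 19 GTPBP8 sites (24.9% ± 5.92 of sites, 15.7% ± 1.18 of reads) and 7 AUH sites (4.12% of sites, 2.70% of reads). For these 3 classes the AUH share of sites and of reads lay outside the range of the GTPBP8 libraries (exact permutation tests, p = 0.25 each). Only 3, 3 and 4 GTPBP8 sites lay in a gene on their own strand (3.61% ± 1.00), against 21.8% of AUH sites. The remaining sites lay in genes of unknown strand, pseudogenes, other small RNA genes or unplaced sequence.

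**Figure D2:**
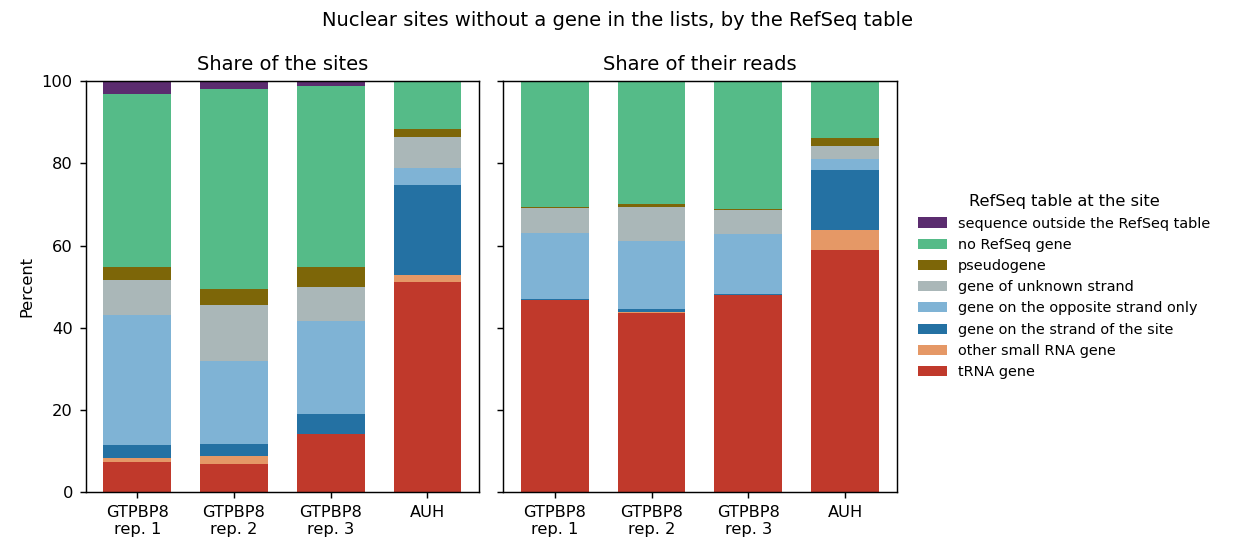
Percent of the sites without a gene (left) and of their reads (right) in each class of the RefSeq table, for the 3 GTPBP8 libraries and AUH. The tRNA share (red, at the base) was 7.37%, 6.80%, 14.3% and 51.2% of sites but 46.7%, 43.6%, 48.1% and 58.9% of reads, and the share with no RefSeq gene (green) was larger in GTPBP8 than in AUH in both panels.

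The classes also differed in conversion. Reads at tRNA genes were converted in 53.6% ± 1.32 (SD, n = 3) in GTPBP8 and 57.6% in AUH. Reads at sites with no RefSeq gene were converted in 78.9% ± 1.60 in GTPBP8 and 93.5% in AUH, and those antisense to a gene in 82.8% ± 3.05 and 57.5%. A pair of AUH sites, with 111 and 45 reads, shared 15 nt with 1 mismatch, and an origin in adapter sequence was not tested. Without them the sites with no RefSeq gene had 91.9% of AUH reads converted, and held 10.9% of the AUH reads without a gene in place of 13.8%. Sites with no RefSeq gene were mostly far from any gene, with a median distance of 11.7, 6.47 and 7.47 kb in GTPBP8 and 3.16 kb in AUH, and 2, 2, 1 and 2 of them lay within 100 nt of a tRNA gene.

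Transfer RNAs are short adaptor RNAs made by RNA polymerase III, which stops at a run of T just past the gene. In GTPBP8 the reads of unnamed sites at tRNA genes came almost entirely from 3 genes. TRV-CAC3-1, TRS-CGA4-1 and TRV-TAC3-1 held 95.1%, 97.0% and 94.8% of them (95.6% ± 1.19, SD, n = 3). In AUH 82 genes were hit, and the 3 with most reads, TRV-AAC2-1, TRV-TAC2-1 and TRR-CCG2-1, held 22.2% (exact permutation test, p = 0.25). The gene symbols carried 5, 5 and 7 amino acid codes in GTPBP8 and 20 in AUH. Valine tRNA genes held 62.3%, 68.2% and 64.5% of the tRNA reads in GTPBP8 and 26.7% in AUH, and serine tRNA genes held 36.7%, 28.8% and 35.0% against 7.26%. As a share of nuclear site reads the tRNA sites of the proteins were close, at 29.4%, 24.5% and 29.9% in GTPBP8 and 24.4% in AUH (exact permutation test, p = 0.5). The lists did name some sites on tRNA genes (2, 3, 5 and 25 sites with 1687, 1017, 2208 and 749 reads), which were not counted here. In GTPBP8 these included TRS-GCT3-1, with 1107 and 1506 reads in replicates 1 and 3. They also included TRC-GCA6-1, with 580, 900 and 592 reads in replicates 1 to 3. The counts and shares of tRNA genes above are therefore those of unnamed sites only.

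TRV-CAC3-1 had 3400, 3698 and 4015 reads in GTPBP8 replicates 1 to 3 and 104 in AUH. The GTPBP8 sites spanned positions 1 to 57 of the gene in replicates 1 and 3 and 1 to 79 in replicate 2, which ran 6 nt past its end, whereas the AUH site began before the gene and ended at position 32. TRS-CGA4-1 had 2567, 2302 and 2923 reads, all from position 31 on and ending at 66, 72 and 66, and 30 reads in AUH. TRV-TAC3-1 had 1477, 1761 and 1866 reads over positions 16 to 71, 13 to 59 and 13 to 47, and no AUH site without a gene. Converted reads were 53.0%, 54.2% and 54.3% at TRV-CAC3-1, 45.5%, 46.7% and 41.1% at TRS-CGA4-1, and 66.5%, 66.7% and 66.5% at TRV-TAC3-1. The order of these 3 genes by conversion was the same in each replicate.

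By number of sites, AUH reached past the ends of tRNA genes more often than GTPBP8. Of the 87 sites, 56 ran beyond the 3′ end, by a median of 9 nt and up to 24 nt, and 21 had TTTT within their last 8 bases, while 18 began before the 5′ end and held 40.9% of the tRNA reads. In GTPBP8, 1, 2 and 4 sites ran beyond the 3′ end and none had such a run, and sites that began before the 5′ end held 0.881%, 0% and 0.194% of the tRNA reads (exact permutation test against AUH, p = 0.25). By reads the 3′ end gave no such order, since sites beyond it held 0.0766%, 46.3% and 0.280% of the tRNA reads in GTPBP8, with the site of TRV-CAC3-1 in replicate 2, and 40.5% in AUH (exact permutation test, p = 1.0). The median site centre lay at 57.2% ± 4.83 of the gene in GTPBP8 and at 83.3% in AUH. The AUH sites of most reads lay at the other end. TRV-AAC2-1 (163 reads), TRV-TAC2-1 (132 reads) and TRR-CCG2-1 (128 reads) ended at positions 31, 31 and 41, and 19 sites centred in the first part of the gene, up to its middle, held 47.8% of the AUH tRNA reads. By reads this gave no order between the proteins. Sites so centred held 44.3%, 24.8% and 64.7% of the tRNA reads in GTPBP8, a range that takes in the AUH value (exact permutation test, p = 0.75). RefSeq gives no strand for tRNA genes in the table used, so positions were read on the strand of the site.

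**Figure D3:**
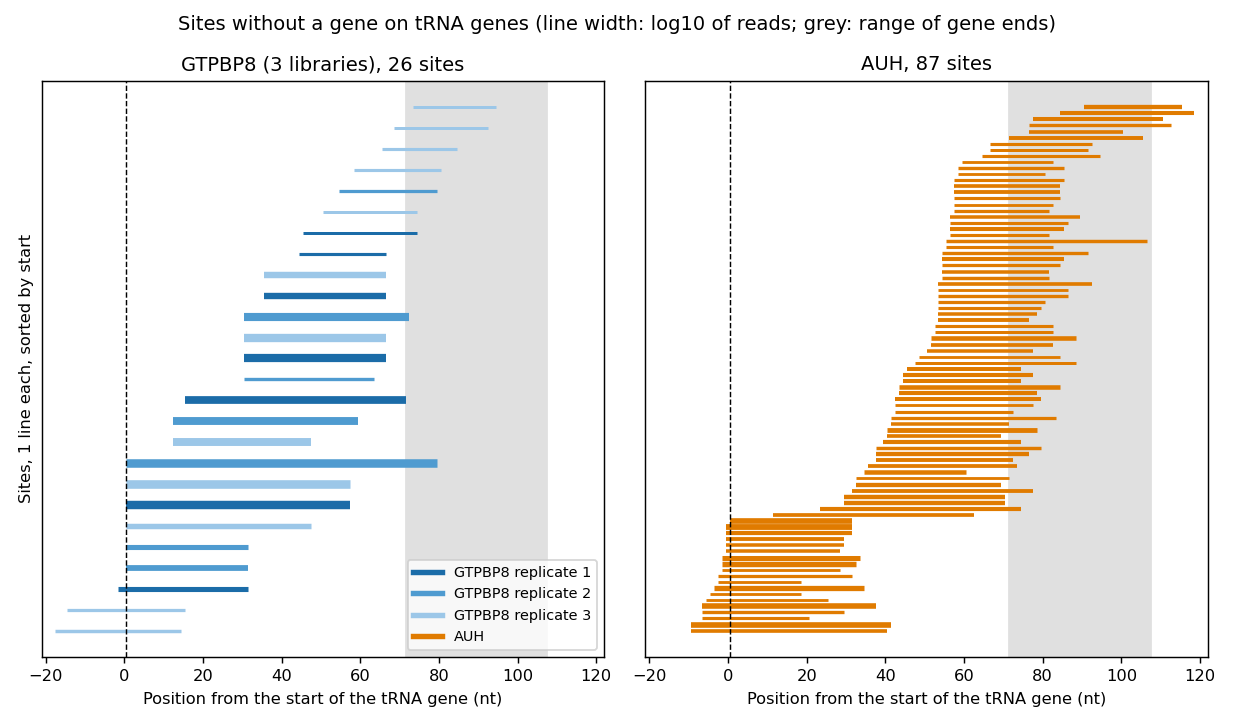
Sites without a gene on tRNA genes, 1 line per site from its first to its last base, placed by distance from the start of the gene in nt, with line width following log10 of the reads. The thickest of the 26 GTPBP8 lines (left, 3 libraries) lie mostly inside the genes, and the 87 AUH lines (right) form a set that starts at or before the gene and a larger set that crosses the region where genes end (grey).

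Merging overlapping sites on the same strand gave 357 loci, of which 194 had a GTPBP8 site and 170 an AUH site. A site was present in all 3 GTPBP8 libraries at 32 loci (16.5% of 194), in 2 at 24 and in 1 at 138. The 32 loci held 91.6%, 92.1% and 91.5% of the reads without a gene (91.7% ± 0.346, SD, n = 3), which was 57.6%, 51.8% and 56.8% of all nuclear site reads. The loci found in a single library numbered 43, 55 and 36 and held 3.93%, 5.28% and 3.36% of the reads without a gene, with a median of 6, 9 and 7 reads. The 12 loci of largest mean share held 85.4% ± 0.518 of the reads without a gene, so the other 20 of the 32 added little. Of the 32 loci, 15 had no RefSeq gene, 8 lay antisense to a gene, 5 lay in a gene of unknown strand, 3 were the tRNA genes above and 1 was a pseudogene. The coefficient of variation of their share over the replicates had a median of 16.0% and ranged from 1.93% to 55.8%.

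Outside tRNA genes, the locus with most reads was chr13:27456891-27456914, 6327 nt from MTIF3, the nearest RefSeq gene. Whether it is a copy of mitochondrial sequence outside the listed mitochondrial sites, or one with gaps, was not tested. It had 2675, 2685 and 2632 reads, 8.90% ± 0.981 (SD, n = 3) of nuclear site reads, and 94.1%, 95.05% and 94.3% of them were converted. The locus at chr17:38854848-38854874 came next with 717, 1017 and 984 reads (2.99% ± 0.261), but only 13.1%, 19.2% and 17.7% of its reads were converted, the lowest share among the 12. Antisense to RABL3, a gene for a small GTPase, there were 859, 754 and 752 reads (2.65% ± 0.498), converted in 95.7%, 91.5% and 94.0%. Whether the RABL3 site is a copy of mitochondrial sequence outside the listed mitochondrial sites was likewise not tested. None of these loci had an AUH site.

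Antisense to DYNC2H1, the heavy chain of the dynein that works in cilia, there were 434, 753 and 575 reads (1.93% ± 0.346), converted in 95.4%, 92.6% and 94.3%. At chr6:140325373-140325394, 120048 nt from the nearest RefSeq gene, there were 461, 390 and 710 reads (1.73% ± 0.544), and 100% of them were converted in each library. Antisense to SEMA3D, which encodes a secreted semaphorin, there were 421, 528 and 484 reads (1.58% ± 0.0306), the least variable share of the 32 loci. KHDRBS2 encodes an RNA-binding protein, and the site antisense to it had 409, 521 and 411 reads (1.48% ± 0.144). RefSeq also lists MTRNR2L9 at this place, a gene named for its likeness to mitochondrial 16S rRNA. Antisense here refers to KHDRBS2, and whether the site lies on the strand of MTRNR2L9 was not tested. Converted reads at that site were 62.3%, 43.0% and 61.1%, so replicate 2 stood below the others. At chr7:49471223-49471245 there were 385, 465 and 402 reads (1.39% ± 0.0820), converted in 98.7%, 98.3% and 97.0%.

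**Figure D4:**
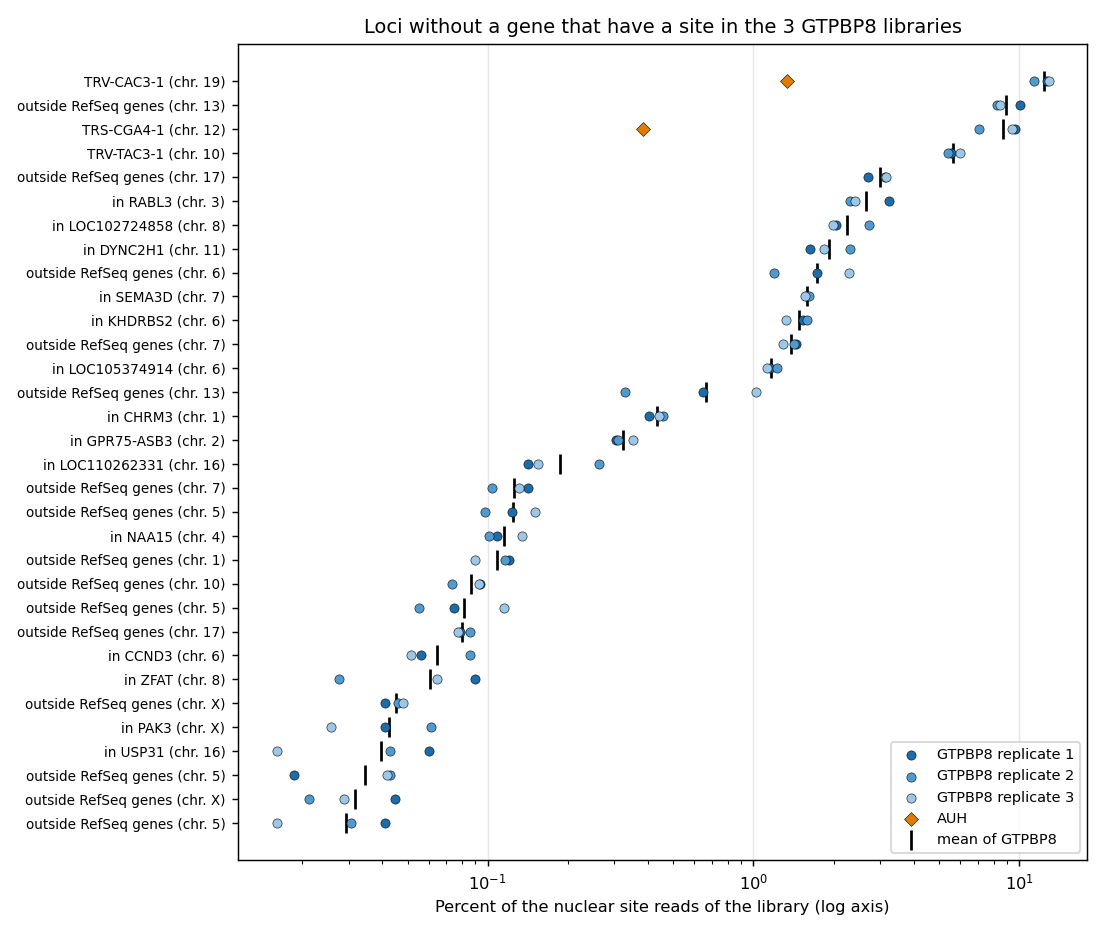
Percent of the nuclear site reads of each library (log axis) at the 32 loci without a gene that had a site in all 3 GTPBP8 libraries (circles; black bars are their mean), with AUH as diamonds where it had a site. The means run from 12.3% at TRV-CAC3-1 down to 0.0293%, the replicates stay close at most loci, and AUH appears at 2 loci with 1.33% and 0.385%.

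AUH and GTPBP8 shared 7 loci without a gene, 3.61% of the GTPBP8 loci and 4.12% of the AUH loci, and 6 of them were tRNA genes. Beside TRV-CAC3-1 and TRS-CGA4-1, TRT-TGT2-1, a threonine tRNA gene, had 69 and 156 reads in GTPBP8 replicates 1 and 2 and 16 in AUH. TRV-TAC2-1 had 107 reads in GTPBP8 replicate 3 and 132 in AUH, and its site ended at position 47 in GTPBP8 and 31 in AUH. The shared locus that was no tRNA gene lay antisense to CEP112, with 17 reads in replicate 2 and 8 in AUH. TRA-TGC3-1, an alanine tRNA gene, had 8 reads in replicate 2 and 11 in AUH. Counted over sites and against all nuclear AUH sites, 13 of 282 GTPBP8 sites without a gene overlapped (4.61%), where the share over all nuclear GTPBP8 sites was 2.85%. Per library the overlap was 3.16%, 4.85% and 5.95% without a gene and 3.11%, 1.86% and 2.87% with one (exact sign-flip test of the difference, p = 0.25, n = 3). Without the sites on tRNA genes the mean difference turned from 2.04 to −1.91 points.

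A gene name could be absent in one kind of list and present in the other at the same place. Of the 357 loci, 8 overlapped a site that another library's list did name. Each of the 8 paired an AUH site with a GTPBP8 site, and they were not counted among the shared loci above. The count of shared loci therefore depends on how the lists name sites. AUH sites without a gene lay on VTRNA1-1 (7 reads) and VTRNA1-2 (65 reads), which encode vault RNAs and were named in the GTPBP8 lists, and on the histone genes H3C2 and H4C8, named HIST1H3B and HIST1H4H in the list of GTPBP8 replicate 2. The AUH and GTPBP8 lists also have different columns, so the protein and the way of naming sites cannot be told apart in the comparison of their unnamed sites.

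Near-identical sequence at several loci was more frequent among sites without a gene. A site was counted when a site of the same library at another locus held its sequence, or was held in it, on the same strand without gaps and with at most 2 mismatches. This was so for 10, 9 and 11 GTPBP8 sites without a gene (10.5%, 8.74% and 13.1%), against 3.73%, 2.20% and 1.59% of those with one, a difference of 8.28 ± 2.79 points (SD, n = 3; exact sign-flip test, p = 0.25). In AUH it was so for 9 sites (5.29%) against 1.59%. Over all nuclear sites the share was 3.97% in GTPBP8, beside 10.6% of the 282 sites without a gene, and 2.52% in AUH. Across the 4 lists, 21 groups of near-identical sequence held a site without a gene, 7 of them with 3 or more loci, and 14 also held a site with a gene. A single group held 15 of the GTPBP8 sites without a gene. With 1 site kept per group, the GTPBP8 difference fell from 8.28 to 2.53 ± 1.77 points (SD, n = 3).

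The largest group resembled U2, the small nuclear RNA that pairs with the branch point of introns in the spliceosome, since the lists named 2 of its loci RNU2-4P and RNU2-13P, which are U2 pseudogenes. It had 14 loci, 8 of them without a gene, and 24 sites with 7547 reads, all in GTPBP8 and none in AUH. Reads without a gene in this group were 1124, 1645 and 1464 in replicates 1 to 3. The sequences of 7 loci without a gene and 2 with one are shown because each differs from the most common letters of the group by 1 or 2 bases, which are in capitals. A substitution is given as the most common base, its position counted from the first aligned position of the group, and the base of the site.
chr17:38854848-38854874, plus strand, T18C: cttctcggccttttggcCaagatcaag
chr2:53825895-53825920, plus strand, T14C: cttctcggcctttCggctaagatcaa
chr11:63577728-63577754, plus strand, T12C and A25G: cttctcggcctCttggctaagatcGag
chr14:80765092-80765118, plus strand, T13C and A25G: cttctcggccttCtggctaagatcGag
chr6:9012399-9012425, minus strand, C4T: cttTtcggccttttggctaagatcaag
chr18:75692816-75692841, minus strand, T12A: ttctcggcctAttggctaagatcaag
chr17:53609505-53609531, minus strand, A20G: cttctcggccttttggctaGgatcaag
NEDD4 in the lists, chr15:55853460-55853485, minus strand, T2C: Ctctcggccttttggctaagatcaag
RNU2-4P in the lists, chr17:43387387-43387413, minus strand, G8T: cttctcgTccttttggctaagatcaag

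Every one of the 24 sites differed from the most common letters of the group. Conversion varied with the kind of difference. At 14 sites of 7 loci the genome has C where most of the group has T, and 13.1% to 71.4% of their reads were converted (median 27.5%). At 5 sites of 2 loci it has T where most of the group has C, and 66.7% to 91.7% were converted (median 79.8%). The remaining 5 sites, with other differences, ranged from 27.3% to 100% (median 80.0%). The kinds were set after the values had been seen and no test was made. A read with C at a genomic T counts as converted whatever its origin, and a read with T at a genomic C does not. The site on chromosome 17 with T18C had 13.1%, 19.2% and 17.7% of its reads converted in replicates 1 to 3, and the one with C4T, in LOC105374914, had 307, 402 and 349 reads of which 79.8%, 83.1% and 77.4% were converted. The sites on chromosome 2 with T14C had 81, 101 and 110 reads, converted in 25.9%, 29.7% and 29.1%. The site antisense to SEMA3D was not in the group but differed from a site of it by 3 mismatches in 26 nt, with 77.2%, 77.8% and 75.2% of its reads converted.

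**Figure D5:**
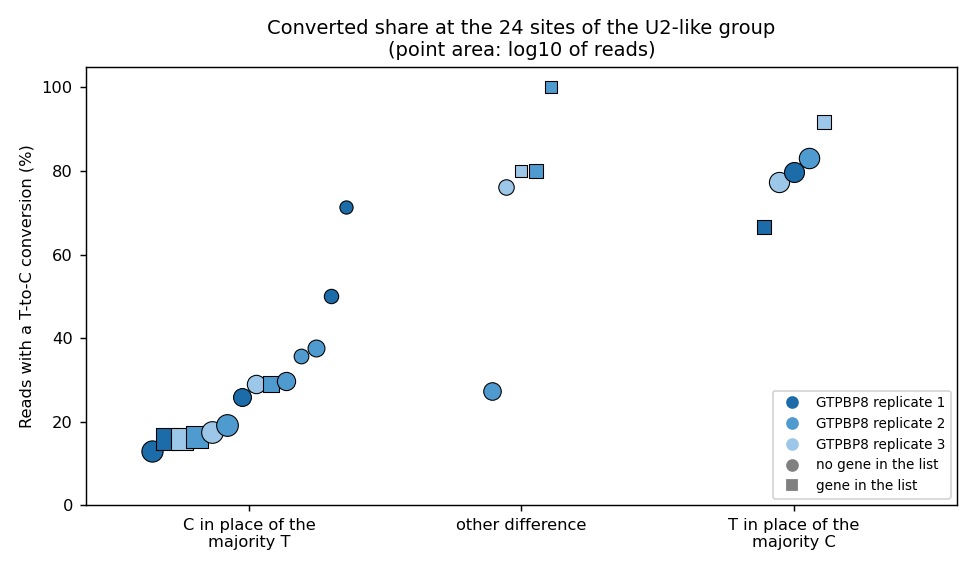
Percent of reads with a T-to-C conversion at the 24 sites of the U2-like group, by the kind of difference from the most common letters of the group; circles have no gene in the list and squares have one, and the point area follows log10 of the reads. Sites with C in place of T lie mostly low (median 27.5%) and sites with T in place of C lie between 66.7% and 91.7%.

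The other groups of 3 or more loci that the naming rule took in were small or made of tRNA genes. One joined the 3′ ends of histone genes, whose mRNAs end in a stem-loop in place of a poly(A) tail. The sites without a gene there lay at H2BC12 with 16 and 11 reads in GTPBP8 replicates 1 and 3 and at H3C2 with 8 reads in AUH, beside named sites at HIST1H1E and HIST2H2BE. A search for a stem of 6 nt around the loop TTTC was chosen after the values had been seen. It found 3 of 170 AUH sites without a gene (H3C2, H4C3 and H4C8, with 8, 7 and 12 reads) and none of 282 in GTPBP8. The H2BC12 sites have A as the last base of that loop (C26A), with the same stem, so the search could not count them. The absence in GTPBP8 therefore holds for the loop TTTC only. Among sites with a gene it found 4 of 322, 3 of 592 and 1 of 314 in GTPBP8 and none of 504 in AUH. The valine group held TRV-TAC3-1, TRV-TAC2-1 and a site antisense to THRA with 6 reads in replicate 1. A group of alanine tRNA genes (TRA-CGC3-1, TRA-AGC3-1 and TRA-TGC1-1 without a gene in the list) and a group of arginine tRNA genes (TRR-CCT2-1 without one) were seen in AUH alone. With their named sites these groups had 96 and 78 reads, of which 66 and 19 were at sites without a gene. The last joined a site of 10 reads at RNVU1-31, a variant U1 gene, in GTPBP8 replicate 1 to AUH sites named RNU1-11P and RNU1-34P.

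Insertions of mitochondrial DNA were the other family with several copies. No mitochondrial genome was at hand, so the nuclear sites were compared on either strand with the 5699 nt, in 93 stretches, that the mitochondrial sites of the 4 lists cover, and counts of matches are lower bounds. With at most 2 mismatches, 4, 3 and 4 GTPBP8 sites without a gene matched (4.21%, 2.91% and 4.76%), against 1.24%, 1.01% and 1.91% of those with one, a difference of 2.57 ± 0.586 points (SD, n = 3; exact sign-flip test, p = 0.25). Over all nuclear GTPBP8 sites the share was 1.79%, beside 3.90% of the 282 sites. In AUH 1 site matched, 0.588% of the sites without a gene and 0.148% of all nuclear sites. The matching sites without a gene held only 109, 52, 149 and 11 reads. By reads the order in GTPBP8 was the opposite, since the matching sites with a gene held 430, 497 and 481 reads. These were 1.61%, 1.52% and 1.55% of nuclear site reads, against 0.409%, 0.159% and 0.479% at the matching sites without a gene. Sequences are shown because none matched exactly, with the differing bases in capitals; a substitution is the mitochondrial base, its position from the 5′ end of the site, and the base of the site.
Replicate 1, chr1:5850257-5850289, minus strand, C16T and A33G: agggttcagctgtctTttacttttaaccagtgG
Replicate 1, antisense to DYNC2H1, chr11:103408971-103408998, minus strand, G2C and C25T: gCttcagctgtctcttacttttaaTcag
Replicate 1, chr3:96618357-96618389, minus strand, C2T: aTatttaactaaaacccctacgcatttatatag
Replicates 1 and 2, chr3:116665558-116665578, minus strand, C5T and C7T: tataTtTaattgatccaataa
Replicate 2, chr9:89188467-89188488, minus strand, T20C: atttacataaatattatacCag
Replicate 3, chr3:96618368-96618389, minus strand, C2T: aTatttaactaaaacccctacg
Replicate 3, chr4:155464074-155464105, minus strand, A8G and C24T: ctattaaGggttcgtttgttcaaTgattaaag
Replicate 3, chr4:155464139-155464168, minus strand, G16A: tccatatcaacaataAggtttacgacctcg
Replicate 3, chr5:106553361-106553387, minus strand, C17T and C26T: acctccccaccccatcTaacatctcTg
AUH, in MTCO1P12, chr1:631798-631832, plus strand, T14C: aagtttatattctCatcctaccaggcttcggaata

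Most of these stretches matched the region of the ribosomal RNAs. The 2 sites near chr3:96618357 matched the mitochondrial genome from position 1517, in the 12S rRNA gene, with 56 reads in replicate 1 and 87 in replicate 3, of which 42.9% and 36.8% were converted. The sites on chromosome 4 matched from 3023 and 2960, in the 16S rRNA gene, with 41 and 14 reads in replicate 3. Of the 7, 4 and 6 mismatches in replicates 1 to 3, a T in the nuclear site where the mitochondrial sequence has C made up 5, 2 and 4. Over all 4 lists, the 8 sites with such a difference had 36.8% to 100% of reads converted (median 85.0%). The 4 without, 1 of them from AUH, had a median of 47.7%. A locus with a site in 2 replicates was counted in each. These counts are small and no test was made. MTCO1P12, a nuclear copy of the gene for cytochrome c oxidase subunit 1, was named in the GTPBP8 lists and left unnamed in AUH, where it had 11 reads with 45.5% converted.

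Allowing mismatches in up to 20% of a site brought in loci of many reads. Then 9 of 95, 8 of 103 and 8 of 84 GTPBP8 sites without a gene matched, with 1035, 1229 and 1454 reads or 3.88%, 3.76% and 4.67% of nuclear site reads, and the AUH count stayed at 1. Among GTPBP8 sites with a gene, 5 of 322, 6 of 592 and 7 of 314 matched, with 578, 497 and 498 reads. The difference in the share of sites was 7.32 ± 0.584 points (SD, n = 3; exact sign-flip test, p = 0.25). The site antisense to DYNC2H1 with 434, 753 and 575 reads matched positions 3048 to 3105 in replicates 1 and 2, at the 3′ part of the 16S rRNA gene, with the differences C13T, C26T and C31T. In replicate 3 its shorter site matched 3055 to 3097. The site at chr6:140325374-140325394 matched 1517 to 1537 with 4 differences (C2T, T19A, A20T and C21G), 3 of which were its last bases.

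The remaining locus of the 12 lay in LOC102724858, a gene of unknown strand in the table, and had 546, 888 and 619 reads (2.25% ± 0.405, SD, n = 3 of nuclear site reads), converted in 64.3%, 64.2% and 67.5%, and no AUH site. The most read AUH sites were lower by count in a smaller library. The chrX:87071109-87071130 site, 75603 nt from the nearest RefSeq gene, had 177 reads (2.27% of nuclear site reads, 95% Wilson interval 1.96 to 2.63), of which 98.3% were converted. HSPA5 encodes the chaperone BiP of the endoplasmic reticulum, and the AUH site on its strand had 157 reads (2.01%, 1.73 to 2.35), converted in 98.1%. No GTPBP8 site without a gene overlapped either.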

How the data were processed

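Nuclear binding sites were taken from the deposited site list of each fPAR-CLIP library (3 GTPBP8, 1 AUH). Per the methods, the authors demultiplexed reads with bcl2fastq (version 2.17.1 in the submitters' processing notes), trimmed adapters with Cutadapt, mapped to hg38 and called sites with PARpipe and PARalyzer. The deposited GTPBP8 lists give read counts per site and the converted fraction as a share of reads. The deposited AUH list gives converted reads as estimated counts (averages where sites were merged), a fraction, and a read-length score that was not used. The sources used here do not name its caller. AUH reads were computed as converted reads over the fraction, because the listed totals were multiplied at sites with a gene. AUH starts, listed from 0, were raised by 1.

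Members and lists were chosen with earlier results of these data known. Sites were placed in RefSeq genes (GRCh38.p14), with gene strand from the RefSeq promoter table, which has none for tRNA genes. Overlap meant 1 nt on the same strand; near-identity meant at most 2 mismatches. Each library gave 1 value. GTPBP8 was compared with AUH by exact two-sided permutation tests, and sites without and with a gene by exact two-sided sign-flip tests over 3 libraries; both have a smallest p of 0.25. Python 3.11.15, numpy 2.4.6, pandas 2.3.3 and scipy 1.17.1 were used, and the sequence search was tested on simulated data. The alternatives were read minima, deposited AUH totals, medians over sites, overlap and mismatch limits, site subsets and leaving out each replicate. Named sites were the 12 loci of largest mean share among those in all 3 GTPBP8 libraries, the 5 sites of most reads per library, up to 6 near-identical groups of 3 or more loci, the matches to mitochondrial site sequence, of which 1 is not reported here by name or sequence, and up to 6 loci shared with AUH. Sites named outside this rule were chosen after their values were seen.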

Additional observations from a re-analysis of the deposited data

Results flagged for a closer look

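For 6 measures the difference between sites without and with a gene ran one way in all 3 GTPBP8 libraries and the other way in AUH. The difference between the proteins was not tested, because AUH had a single library. Median length without minus with a gene was 1 nt in AUH and −1, −1 and −3 nt in GTPBP8 replicates 1 to 3. The converted share differed by −10.4 percentage points in AUH and by 4.56, 2.87 and 7.53 points in GTPBP8. Median GC content differed by 4.38 points in AUH and by −5.38, −2.86 and −3.33 in GTPBP8. The mean longest run of a single base differed by −0.025 nt in AUH, close to 0, and by 0.41, 0.14 and 0.38 nt in GTPBP8. The share of sites with no G differed by −0.40 points in AUH and by 6.53, 1.68 and 7.18 in GTPBP8. The share with ATTTA differed by −0.64 points in AUH and by 7.23, 6.08 and 6.73 in GTPBP8. Without the sites on tRNA genes, the AUH differences in converted share, GC content, ATTTA and sites with no G became 1.58, −1.60, 2.84 and 0.16 points, the direction of GTPBP8 (means of 16.1, −6.00, 7.94 and 7.01 points over 3 libraries), that in length became 0 nt, and that in the longest run stayed opposite at −0.16 nt.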

How the results depend on the processing

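Leaving out any GTPBP8 replicate, requiring at least 2 conversion positions (met by all sites), keeping 1 site per near-identical group, counting distinct reads, other overlap rules, chromosomes 1 to 22, X and Y alone, or leaving out mitochondrial matches turned no direction in GTPBP8. Directions that turned in GTPBP8, or between it and AUH, were few. The G content difference became −1.10 points at sites of at least 10 reads, −0.23 for members in no RefSeq gene and −0.39 without tRNA genes. The share of nuclear sites became 9.79% in GTPBP8 against 3.82% in AUH for members in no RefSeq gene, and 18.2% against 14.8% without tRNA genes. The overlap with AUH, without minus with a gene, became −1.43, −1.91 and −0.38 points for members in no RefSeq gene, without tRNA genes, and without the 5 members of most reads in each library. The longest run became −0.11 nt for members in no RefSeq gene, and the mean length differed by 0.20 nt where the median differed by −1.67 nt. Single AUH values turned more often. The AUH ratio of reads per site became 0.625 with the deposited totals, and 0.886 at sites of at least 10 reads, where the AUH difference in sites at several loci also turned, from 3.71 to −1.79 points. With 1 site per near-identical group the GTPBP8 difference in sites at several loci was 2.53 points in place of 8.28. Leaving out the 5 members of most reads brought the share of nuclear reads to 35.5% in GTPBP8 and 35.1% in AUH. The settings without tRNA genes and without those 5 members were chosen after seeing the data. With 0 mismatches there was no mitochondrial match and no near-identical site, and distinct reads give no converted share, so these alternatives gave no value. Without a replicate, the read share ran from 59.2% to 62.5% and the overlap difference between replicates from 18.8 to 30.8 points. No p could pass 0.05 under any setting, and sites of 5 to 10 reads limit the lists. No paired analysis was possible because AUH has 1 library without a replicate number, so the groups share fewer than 2 numbers.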
